A study of Mus musculus with 2 samples.

Results

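The costimulatory ligands Cd80, Cd86, Icosl, Cd48 and Icam1, the receptor Cd40 and the 4-1BB pair, Tnfsf9 (4-1BB ligand) and Tnfrsf9 (4-1BB), were followed through a single-cell RNA-seq data set of mouse mesothelioma. The set was chosen by gene symbol, and each of its 8 genes matched 1 of the 31053 features of the deposited matrices. Mice carrying tumours of the mesothelioma line AB1-HA received either a control antibody or an anti-VEGF antibody. The tumours were digested, dead cells were removed by propidium iodide, cells stained by a CD45 antibody were sorted, and 10x 3' v3.1 libraries were made. Each antibody is represented by 1 library. The number of mice behind a library and their strain, age, dose and treatment time are not given in the sources used here, so every difference described here is a difference between 2 libraries, and no test was possible.

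Costimulatory molecules deliver the signals that T cells need beside antigen. CD80 and CD86 on antigen-presenting cells bind CD28, which activates, and CTLA-4, which restrains, while ICOS ligand binds ICOS. CD48 binds CD2 and CD244 on lymphocytes, and ICAM-1 is the adhesion ligand of the integrins LFA-1 and Mac-1. CD40 is the receptor through which T cells bearing CD40 ligand license macrophages and dendritic cells. 4-1BB ligand on myeloid cells engages 4-1BB, an activation-induced receptor of T and NK cells that signals through TRAF adaptors to NF-kappaB.

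The matrices held 11687 barcodes and 233687412 UMIs (unique molecular identifiers, 1 per captured transcript) in the control library, and 8825 barcodes and 213948867 UMIs in the anti-VEGF library. After filtering, 10805 and 8159 cells remained, with medians of 18265 and 22503 UMIs, and 35 barcodes occurred in both libraries. Classes were gated on marker genes, and a class name below stands for its gate. Macrophage-gated cells made up 59.1% of the control and 56.9% of the anti-VEGF library (6391 and 4642 cells), followed by osteoclast-like cells (951 and 686), collagen-gated cells (481 and 687), T cells (156 and 87), neutrophils (74 and 331), NK cells (57 and 20), mature Ccr7 and Fscn1 dendritic cells (33 and 15) and Flt3 dendritic cells (38 and 20). Ptprc, which encodes CD45, was detected in 80.2% and 90.3% of macrophage-gated cells but in 18.7% and 18.0% of collagen-gated cells, so most of the latter did not show the marker of the sort. Levels are given as CPM, the UMIs of a gene per 1000000 UMIs of its class in that library, with 95% intervals (exact Poisson for a level, exact conditional binomial for a ratio) that cover counting error only. Because reads come from transcript 3' ends, levels are compared between classes and libraries and not between genes.

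Of 156 control and 87 anti-VEGF cells in the T gate, 105 and 40 also met the macrophage gate, with median depths of 35347 and 38771 UMIs against 6686 and 8282 in the remainder. Macrophage markers stood at 20538.5 and 13835.4 CPM in these double-gated cells and at 509.3 and 229.9 CPM in the other T cells. The lymphocyte, neutrophil and dendritic levels below are therefore from cells outside the macrophage gate unless stated. These classes then hold few cells (51 and 47 T, 29 and 9 NK, 47 and 224 neutrophil, 19 and 12 mature dendritic, 24 and 13 Flt3 dendritic in control and anti-VEGF). For them levels with intervals are given and ratios are not printed, since each has under 50 cells in at least 1 library.

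Cd86, a CD28 ligand of professional antigen-presenting cells, was a gene of dendritic cells and macrophages in both libraries. Mature dendritic cells held 361.8 CPM (283.1 to 455.7) in control and 371.9 (274.2 to 493.1) in anti-VEGF cells. In Flt3 dendritic cells the levels were 256.6 (215.4 to 303.3) and 232.9 CPM (179.3 to 297.4). These intervals overlapped, and macrophages came next with 61.4 CPM in the control library (60.1 to 62.7) and 49.3 CPM in the anti-VEGF library (48.0 to 50.5), a ratio of 0.802 (0.776 to 0.829). This lower level in the anti-VEGF library was beyond counting error but short of 1.5-fold. Osteoclast-like cells held 8.77 and 7.06 CPM, and collagen-gated cells without Ptprc 0.613 and 0.322 CPM from 10 and 8 UMIs. No Cd86 UMI was found in NK cells, where 3 UMIs would have been 8.80 CPM in the control and 42.4 CPM in the anti-VEGF library. Neutrophils had none in the control library, where 3 UMIs would have been 27.4 CPM, and 7.65 CPM from 5 UMIs in the anti-VEGF library.

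The share of macrophages with a Cd86 UMI, unlike the level, was no lower in the anti-VEGF library when all UMIs were used (46.7% in control, 49.5% in anti-VEGF). With each cell thinned to 2000 UMIs, which removes the difference in depth and leaves 5638 and 4506 macrophages, it was 11.6% in control and 9.17% in anti-VEGF cells. Collagen-gated cells without Ptprc were taken as the measure of free RNA. They showed Cd86 in 0 of 380 thinned control cells, where 3 cells would have been 0.789%, and in 0.180% of 555 anti-VEGF cells. Before thinning the median depths were 20563 and 22870 UMIs in macrophages and 41272 and 41218 UMIs in these collagen-gated cells.

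Cd80, the second CD28 ligand, had a different order of classes. It was highest in neutrophils, at 191.6 CPM (118.6 to 292.9) in control and 163.6 CPM (134.1 to 197.7) in anti-VEGF, and in mature dendritic cells, at 155.8 (105.9 to 221.1) and 155.0 CPM (94.7 to 239.3). The intervals of these 2 classes overlapped in both libraries, so their order is not resolved. The neutrophil UMIs came from 13 of 47 and 65 of 224 cells, and after thinning 23.5% of 34 and 29.4% of 143 neutrophils held one. Neutrophils that also met the macrophage gate had 17.1 and 18.5 CPM in cells of 28864 and 31005 median UMIs.

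All remaining classes held little Cd80. Macrophages stood at 6.66 CPM (6.24 to 7.10) in control and 6.50 CPM (6.06 to 6.98) in anti-VEGF, with a ratio of 0.976 (0.887 to 1.07) that includes 1. The processing alternatives put its log2 ratio between -0.18 and 0.26, so no direction is given. Flt3 dendritic cells had 18.7 CPM from 10 UMIs in control and 3.64 CPM from 1 UMI in anti-VEGF, T cells 7.21 and 6.10 CPM from 3 UMIs each, osteoclast-like cells 1.40 and 1.49 CPM, and NK cells none. The collagen-gated cells without Ptprc, described further on, had 4.78 and 7.41 CPM.

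The Cd80 gene (ENSMUSG00000075122) lies on the plus strand of chromosome 16 (chr16:38455561-38496335, GRCm38) and Cd86 (ENSMUSG00000022901) on the minus strand of the same chromosome (chr16:36603869-36666081). RefSeq promoter entries (GRCm38.p6, 250 bases before the start) were found for 5 of the 8 genes. That of Cd80 is printed because its class pattern set it apart from Cd86, with the one match to the AP-1 motif TGANTCA in capitals, at bases -42 to -36 from the start. The bases are chr16:38458683-38458932, plus strand.

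Cd80 promoter: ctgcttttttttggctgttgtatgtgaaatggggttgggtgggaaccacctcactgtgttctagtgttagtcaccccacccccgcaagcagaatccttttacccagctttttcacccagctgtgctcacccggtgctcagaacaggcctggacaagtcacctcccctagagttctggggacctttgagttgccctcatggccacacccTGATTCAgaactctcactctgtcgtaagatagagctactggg

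TGANTCA was present in 6.75% of 32851 promoters of this length, searched on both strands. The other motifs searched were an NF-kappaB consensus, ACGTG and GCGTG (the core of hypoxia-response elements) and TTCNNNGAA (STAT). None of these was matched in the Cd80 window, and a match or its absence says nothing on binding in these cells.

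Within the macrophage gate both CD28 ligands were higher in class II-high and in monocyte-like cells. Macrophages in the highest 20% of class II score (H2-Aa, H2-Ab1, H2-Eb1 and Cd74 UMIs per 10000) held 105.5 CPM of Cd86 against 51.1 in the other macrophages of the control library, and 89.8 against 39.9 in the anti-VEGF library. Cd80 in the same split was 13 against 5.18 CPM and 11.8 against 5.27 CPM. Both genes were thus higher in the class II-high cells of each library. The monocyte-like 20% (Ly6c2, Ccr2, Plac8, Chil3, Vcan, F13a1) showed the same arrangement, with Cd86 at 100.7 against 53.3 CPM in control and 83.9 against 41.5 CPM in anti-VEGF, and Cd80 at 12.6 against 5.44 and 12.3 against 5.20 CPM. These scores are cuts through a range and not cell types.

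Icosl (ENSMUSG00000000732, chr10:78069302-78083913, plus strand), the ligand of ICOS, was sparse everywhere. Mature dendritic cells had the highest level, 35.2 CPM from 7 UMIs in control and 31.0 CPM from 4 UMIs in anti-VEGF. Macrophages held 2.86 CPM (405 UMIs) and 2.40 CPM (288 UMIs), a ratio of 0.837 (0.717 to 0.976), although the direction turned when cells were thinned to 2000 UMIs (log2 ratio 0.08 against -0.26). It was also higher in class II-high macrophages, at 5.0 against 2.36 CPM in control and 4.30 against 1.96 CPM in anti-VEGF. In collagen-gated cells without Ptprc no UMI was found in the control library, where 3 UMIs would have been 0.184 CPM, and 5 UMIs or 0.201 CPM in the anti-VEGF library.

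Cd48 (ENSMUSG00000015355, chr1:171682009-171705258, plus strand), the partner of CD2 and CD244, was found across leukocytes. Its highest levels were in Flt3 dendritic cells (148.0 CPM in control, 109.2 in anti-VEGF), NK cells (146.7 and 84.8) and T cells (117.7 and 128.2), whose intervals overlapped within each library. Mature dendritic cells held 75.4 and 85.2 CPM, and macrophages held 67.4 (66.1 to 68.8) and 54.8 CPM (53.5 to 56.1), a ratio of 0.813 (0.787 to 0.839). Osteoclast-like cells had a lower level but a like ratio of 0.796 (0.696 to 0.910), from 18.2 to 14.5 CPM. Inside the macrophage gate their ratio was 0.892 (0.760 to 1.04) and outside it 0.812 (0.626 to 1.05), and both intervals include 1. Neutrophils held almost none, with 0 UMIs in control, where 3 would have been 27.4 CPM, and 3 UMIs or 4.59 CPM in anti-VEGF. Within macrophages Cd48 was higher in the resident-like 20% (Selenop, Stab1, Cd163, Folr2, Lyve1), at 92.5 against 59.8 CPM in control and 82.8 against 50.3 CPM in anti-VEGF.

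Icam1, the ligand of LFA-1 and Mac-1, resembled Cd80 in being high in neutrophils and mature dendritic cells. Neutrophils held 255.5 CPM (169.8 to 369.3) in control and 206.4 CPM (173.1 to 244.3) in anti-VEGF, and 26.5% and 26.6% of thinned neutrophils held a UMI. Mature dendritic cells held 206.0 (147.9 to 279.5) and 147.2 CPM (88.6 to 229.9), which overlaps the neutrophil intervals. T cells (86.5 and 85.5 CPM) and NK cells (82.1 and 70.6) were alike within their intervals. Macrophages stood at 59.1 (57.9 to 60.4) and 52.8 CPM (51.5 to 54.1), a ratio of 0.893 (0.864 to 0.922). In osteoclast-like cells the levels were 13.9 and 12.5 CPM, with a ratio of 0.899 (0.775 to 1.04) whose interval includes 1.

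The Icam1 promoter entry (chr9:21015690-21015939, plus strand) is printed beside that of Cd80 because both genes were highest in the same 2 classes. Capitals mark GCGTG at bases -242 to -238 and TTCCCGGAA, a match to TTCNNNGAA, at -42 to -34.

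Icam1 promoter: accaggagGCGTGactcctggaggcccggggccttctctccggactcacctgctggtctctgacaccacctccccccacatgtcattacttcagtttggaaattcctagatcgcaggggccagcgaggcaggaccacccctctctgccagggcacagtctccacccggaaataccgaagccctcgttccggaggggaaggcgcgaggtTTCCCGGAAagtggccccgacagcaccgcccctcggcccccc

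GCGTG occurred in 28.2% and TTCNNNGAA in 7.02% of the 32851 promoters. The 2 windows shared no motif among those searched. The Icam1 gene (ENSMUSG00000037405, chr9:21015985-21028817, plus strand) overlaps the antisense gene Gm47079, and the sources used here do not say whether the counting used strand.

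Within macrophages Icam1 and Cd40 were higher in the interferon-scored cells (Rsad2, Ifit1, Ifit2, Ifit3, Isg15, Cxcl10). Icam1 stood at 83.3 CPM in the highest 20% and 52.9 CPM in the others of the control library, and at 77.5 and 46.4 CPM in the anti-VEGF library. Cd40 stood at 32.2 and 13.7 CPM in control and at 40.8 and 17.6 CPM in anti-VEGF. The difference between the states was larger than that between the libraries for both genes.

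Cd40 (ENSMUSG00000017652, chr2:165055627-165072948, plus strand), the receptor that licenses antigen-presenting cells, was highest in mature dendritic cells, at 120.6 CPM (77.3 to 179.5) in control and 155.0 CPM (94.7 to 239.3) in anti-VEGF. Flt3 dendritic cells had 24.3 and 32.7 CPM, with intervals that overlapped those of macrophages. In macrophages the level was 17.5 CPM (16.8 to 18.2) in control and 22.4 CPM (21.5 to 23.2) in anti-VEGF, a ratio of 1.28 (1.21 to 1.35). Osteoclast-like cells had a ratio of 1.25 (0.978 to 1.59), from 4.47 to 5.57 CPM, which counting error does not separate from 1. The ratio was 1.78 (1.34 to 2.35) in those that also met the macrophage gate and 0.621 (0.364 to 1.04) in those outside it. Cd40 gave no UMI in neutrophils or NK cells of either library and 1 UMI in T cells. The 224 anti-VEGF neutrophils bound this best, since 3 UMIs would have been 4.59 CPM.

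**Figure D1:**
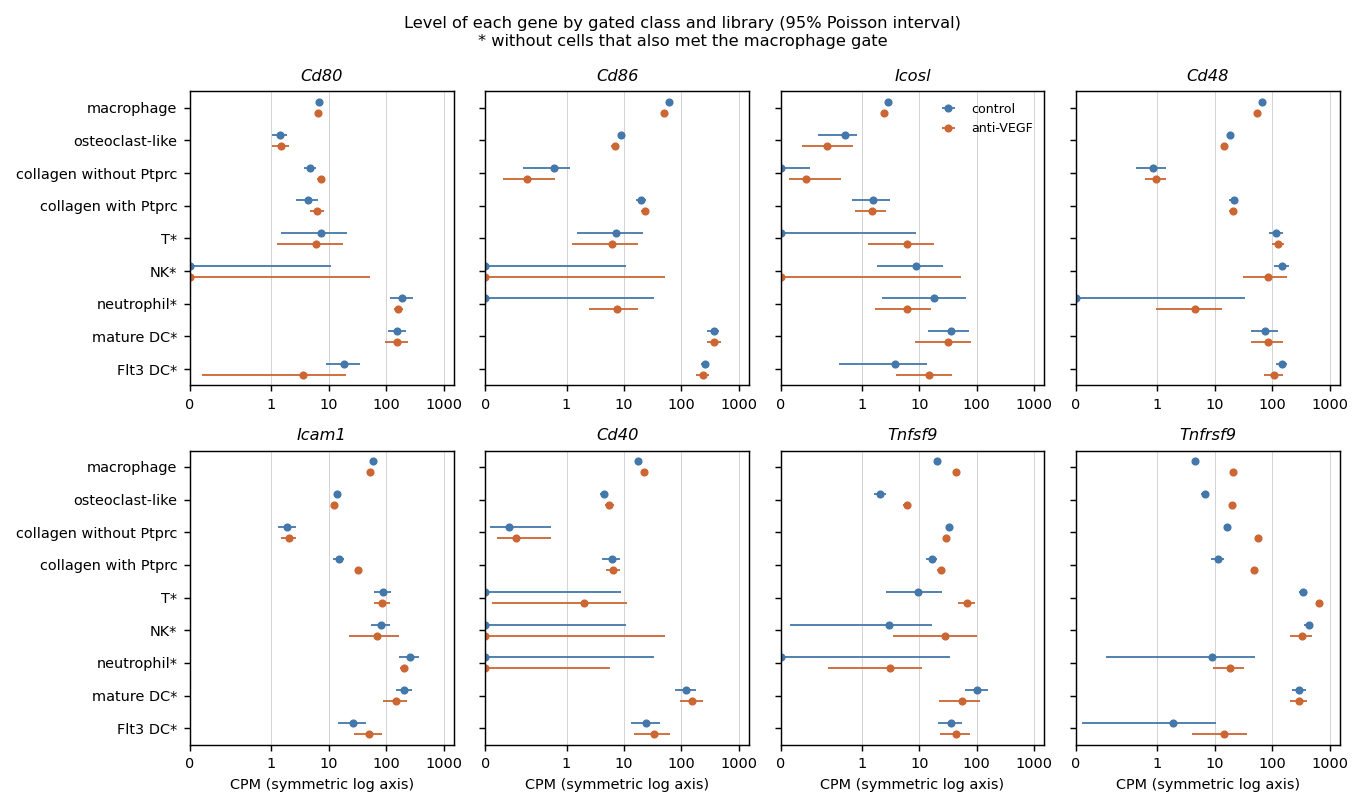
Level of each of the 8 genes (CPM, symmetric log axis) in 9 gated classes of the control (blue) and anti-VEGF (orange) library, with exact 95% Poisson intervals. Classes marked with an asterisk leave out cells that also met the macrophage gate. Tnfrsf9 separates the libraries in macrophages, osteoclast-like, collagen-gated and T cells. Tnfsf9 does so in macrophages and, through the cells that also met the macrophage gate, in osteoclast-like cells. In the anti-VEGF library 7 osteoclast-like cells carried 61.3% of that class's Tnfsf9 UMIs, and 1 T cell carried 51.5% of those of T cells. Cd80 and Icam1 peak in neutrophils and mature dendritic cells.

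Tnfsf9, the ligand of 4-1BB, was 1 of the 2 members higher past 1.5-fold in anti-VEGF macrophages, as were 5.99% of all genes tested. Its level was 20.2 CPM (19.4 to 20.9) in control and 44.1 CPM (42.9 to 45.3) in anti-VEGF, a ratio of 2.19 (2.09 to 2.29). A Tnfsf9 UMI was found in 1277 of 6391 and 1579 of 4642 macrophages, or in 3.69% and 6.61% after thinning to 2000 UMIs. Thinned neutrophils were taken as a class with little of it. They held a UMI in 0 of 34 control cells, where 3 cells would have been 8.82%, and in 0.699% of 143 anti-VEGF cells. As 8.82% is above the 3.69% of control macrophages, the control neutrophils are too few to place that share. In macrophages the anti-VEGF level was above the control level in each count.

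Mature dendritic cells had the highest Tnfsf9 level in the control library, 100.5 CPM (61.4 to 155.2) from 20 UMIs, and 54.2 CPM (21.8 to 111.8) from 7 UMIs in the anti-VEGF library. Flt3 dendritic cells held 35.6 and 43.7 CPM. T cells held 9.61 CPM from 4 UMIs in control and 67.2 CPM from 33 UMIs in anti-VEGF, but 1 cell carried 51.5% of the latter. Osteoclast-like cells went from 2.07 CPM in control (65 UMIs) to 6.05 CPM in anti-VEGF (150 UMIs), a ratio of 2.92 (2.17 to 3.97). Nearly all of these UMIs came from the osteoclast-like cells that also met the macrophage gate, at 3.06 and 12.1 CPM, whereas those outside it held 0.498 and 0.238 CPM from 6 and 3 UMIs. The top 1% of the osteoclast-like cells, 10 in control and 7 in anti-VEGF, carried 55.4% and 61.3% of the UMIs.

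Tnfrsf9, the 4-1BB receptor, was highest in lymphocytes and mature dendritic cells. T cells held 343.5 CPM (289.5 to 404.7) in control and 647.1 CPM (577.9 to 722.3) in anti-VEGF, from 24 of 51 and 36 of 47 cells. The 2 intervals did not overlap, but they take each UMI as independent. T cells with a UMI held 5.96 on average in control and 8.83 in anti-VEGF, and this clustering in cells is not covered. After thinning 40.4% of 47 and 54.3% of 46 T cells held a UMI, shares whose exact binomial intervals overlap. The whole T gate, which includes double-gated cells, had 102.3 and 208.8 CPM, a ratio of 2.04 (1.80 to 2.32). The double-gated T cells alone, 67.3% and 46.0% of the T gate, had 79.7 and 91.2 CPM, so the libraries were closer there than in the T cells outside the macrophage gate. The whole-gate ratio mixes these 2 sets of cells, whose shares differ between the libraries, and its interval does not cover that.

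The T-cell subsets were too small to place that difference. Cd8a or Cd8b1 cells held 212.8 CPM in control (21 cells) and 550.0 CPM in anti-VEGF (19 cells), and Cd4 cells without Foxp3 276.4 and 1524.4 CPM (5 and 7 cells). Foxp3 cells ran the other way, at 1579.6 CPM in 6 control cells and 751.3 CPM in 5 anti-VEGF cells. NK cells held 431.2 CPM (364.3 to 506.8) and 325.0 CPM (206.0 to 487.6), and mature dendritic cells 296.5 (225.7 to 382.5) and 294.4 CPM (208.4 to 404.1). Neither pair differed beyond its intervals.

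Macrophages held far less Tnfrsf9 per UMI than T cells, but it was the member that differed most between the libraries. The level was 4.62 CPM (4.27 to 4.99) from 653 UMIs in control and 20.8 CPM from 2496 UMIs in anti-VEGF, a ratio of 4.50 (4.13 to 4.91). The cells with a UMI numbered 258 (4.04%) and 653 (14.1%). In control, 64 cells (the top 1%) carried 65.7% of the UMIs, and in anti-VEGF 46 cells carried 37.2%. The message was thus concentrated in few macrophages of each library, and these shares are not compared, since they move with the number of cells that hold a UMI. After thinning, 0.656% and 3.13% of macrophages held a UMI, beside 1 of 34 control (2.94%) and 1.40% of 143 anti-VEGF neutrophils. The share in control neutrophils rests on 1 cell and so cannot place the control share in macrophages. Before thinning, 31 control macrophages held 5 or more Tnfrsf9 UMIs. The anti-VEGF share in macrophages is above that of neutrophils of the same library by a margin that rests on few neutrophils.

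Other classes' markers were higher in the macrophages with Tnfrsf9. Collagen markers stood at 21.6 CPM in Tnfrsf9-positive and 9.85 CPM in Tnfrsf9-negative control macrophages, and at 26.8 and 9.17 CPM in anti-VEGF. T-cell markers were at 3.94 against 2.07 CPM and 1.86 against 0.807 CPM. NK markers were at 2.62 against 1.05 CPM in control and 1.48 against 0.111 CPM in anti-VEGF. With every macrophage holding a collagen or T-cell marker UMI left out, the log2 ratio was 2.42 for Tnfrsf9 (2.17 with them). For Tnfsf9 it was 1.18 (1.13 with them). Macrophages with an NK marker UMI were not left out, so their part was not tested.

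Osteoclast-like cells showed the same direction for Tnfrsf9, from 6.76 CPM (5.88 to 7.74) in control to 20.2 CPM (18.4 to 22.0) in anti-VEGF, a ratio of 2.98 (2.54 to 3.52). Here the macrophage gate made little difference. The osteoclast-like cells outside it had 6.80 and 19.5 CPM (ratio 2.87, 2.22 to 3.73) and those inside it 6.74 and 20.9 CPM (ratio 3.1).

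The Tnfrsf9 gene (ENSMUSG00000028965, chr4:150914562-150946102, plus strand) overlaps Camta1 on the opposite strand, and Tnfsf9 (ENSMUSG00000035678, chr17:57105325-57107757, plus strand) overlaps Gm11110 on the opposite strand. Reads of these partners are an uncertainty where strand was not used. RefSeq gives promoter entries at 2 Tnfrsf9 starts, printed because this gene differed most between the libraries. The first (chr4:150919905-150920154) matched none of the searched motifs. Of the second, 169 bases outside exons are shown (chr4:150927749-150927917), with TTCCAAGAA, a match to TTCNNNGAA at -136 to -128, in capitals. The window that follows (chr4:150927947-150927976) lies in an exon of another Tnfrsf9 transcript and holds overlapping matches to the NF-kappaB consensus between -43 and -33, in capitals.

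Tnfrsf9 start 1: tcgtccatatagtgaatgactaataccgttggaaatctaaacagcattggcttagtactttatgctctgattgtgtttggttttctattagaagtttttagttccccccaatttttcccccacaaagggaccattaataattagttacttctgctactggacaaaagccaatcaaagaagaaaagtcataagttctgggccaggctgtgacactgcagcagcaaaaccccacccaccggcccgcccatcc
Tnfrsf9 start 2: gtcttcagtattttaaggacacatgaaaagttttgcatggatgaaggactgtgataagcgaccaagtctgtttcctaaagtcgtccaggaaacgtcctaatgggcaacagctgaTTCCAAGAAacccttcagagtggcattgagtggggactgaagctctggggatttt
Tnfrsf9 start 2, window: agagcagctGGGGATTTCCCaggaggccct

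The second start also held TGAGTCA, a match to TGANTCA, at -15 to -9. The NF-kappaB consensus was present in 7.25% of the 32851 promoters.

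Hypoxia score separated the macrophages of the libraries and went with both genes of the 4-1BB pair. The score sums UMIs of Adm, Ndrg1, Ankrd37, Slc2a1, Egln3 and Bnip3, genes induced at low oxygen, per 10000 UMIs. The highest 20% of pooled macrophages (12.7 or more) held 7.64% of control and 37.0% of anti-VEGF macrophages, and 2.69% and 7.02% of them lay within 10% of this cut. Macrophages with Tnfrsf9 had a median score of 6.31 against 1.70 in those without it in control, and 17.2 against 7.48 in anti-VEGF.

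Over 5 equal bins of the score, Tnfrsf9 in control macrophages was 1.1 CPM in the first bin, 2.22 in the middle bin and 31.9 in the last. In anti-VEGF macrophages it was 0.440, 5.13 and 43.4 CPM in the same bins. Within a bin the libraries were closer than over all macrophages, with ratios of 0.401, 2.39, 2.31, 1.69 and 1.36 (1.20 to 1.55 in the last bin) against 4.50 over all. The first of these rests on 33 and 3 UMIs and its interval includes 1. Tnfsf9 behaved otherwise in that its ratio grew over the bins, at 1.01, 1.13, 1.26, 1.41 and 1.73 (1.54 to 1.95 in the last bin), the first and second with intervals that include 1. Its control level went from 6.85 CPM in the first to 35.0 CPM in the last bin and its anti-VEGF level from 6.90 to 60.6 CPM. Outside the highest 20%, Tnfrsf9 was still 2.77 CPM in control and 8.57 CPM in anti-VEGF (ratio 3.09), and Tnfsf9 19.1 and 35.2 CPM (ratio 1.84).

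The CD28 ligand Cd86 was lower in the anti-VEGF library in all 5 bins, with ratios between 0.654 and 0.826. The ratio of Cd48 was 0.915 (0.812 to 1.03) in the first bin and between 0.751 and 0.819 in the others. Cd86 in control climbed from 31.5 CPM in the first bin to 86.0 in bin 4 and stood at 65.0 in the last. Cd80 had ratios of 1.09 and 0.872 in the first and second bins, with intervals that include 1, and of 0.719, 0.758 and 0.692 in the others, beside 0.976 over all macrophages. Cd40 was higher in anti-VEGF in the last bin (ratio 1.42, 1.21 to 1.67) and lower in the middle bin (0.868, 0.764 to 0.985). Its ratios in the first, second and next to last bins (1.23, 0.908 and 1.08) had intervals that include 1.

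**Figure D2:**
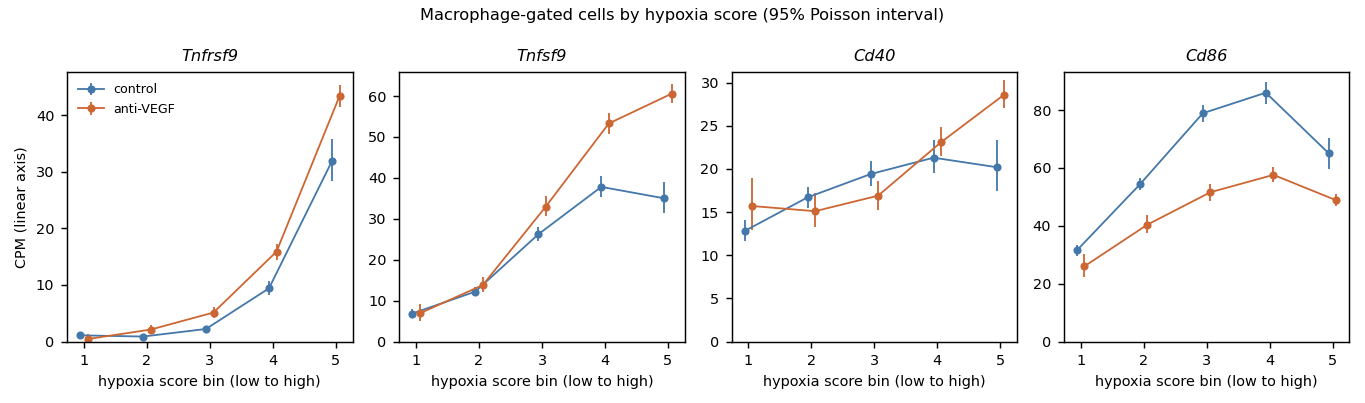
Level (CPM, linear axis) of Tnfrsf9, Tnfsf9, Cd40 and Cd86 in macrophage-gated cells of the control (blue) and anti-VEGF (orange) library over 5 hypoxia score bins of equal size in the pooled cells, with exact 95% Poisson intervals. Tnfrsf9 goes from near 1 CPM in the first bin to 31.9 and 43.4 CPM in the last, and Cd86 is lower in anti-VEGF in every bin.

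Of the other macrophage states, class II-high cells had more Tnfrsf9 (8.07 against 3.81 CPM in control, 35.4 against 17.4 CPM in anti-VEGF). Tnfsf9 in the same cells was 23.4 against 19.4 CPM in control but 35.8 against 46.0 CPM in anti-VEGF. Cycling macrophages (Mki67, Top2a, Cdk1, Ccnb1, Birc5) had less of both, with Tnfrsf9 at 1.74 against 5.74 CPM and 9.01 against 24.0 CPM, and Tnfsf9 at 14.0 against 22.6 CPM and 24.6 against 49.4 CPM.

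Counted over the set, 3 of 8 members had a ratio above 1 in macrophages, and the median log2 ratio was -0.10. Over all 13810 genes with at least 30 UMIs, 33.0% had a ratio above 1 and the median was -0.11. Past 1.5-fold, 2 members were higher in anti-VEGF, beside 5.99% of all genes, and 0 were lower, beside 6.99%. In osteoclast-like cells 7 members could be measured, of which 2 were higher past 1.5-fold (3.25% of all genes) and 0 lower (3.43%). In collagen-gated cells without Ptprc 5 could be measured, of which 2 were higher (4.33% of all genes) and 0 lower (5.29%). The 2 higher members were Tnfsf9 and Tnfrsf9 in macrophages and osteoclast-like cells, and Cd80 and Tnfrsf9 in the collagen-gated cells.

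**Figure D3:**
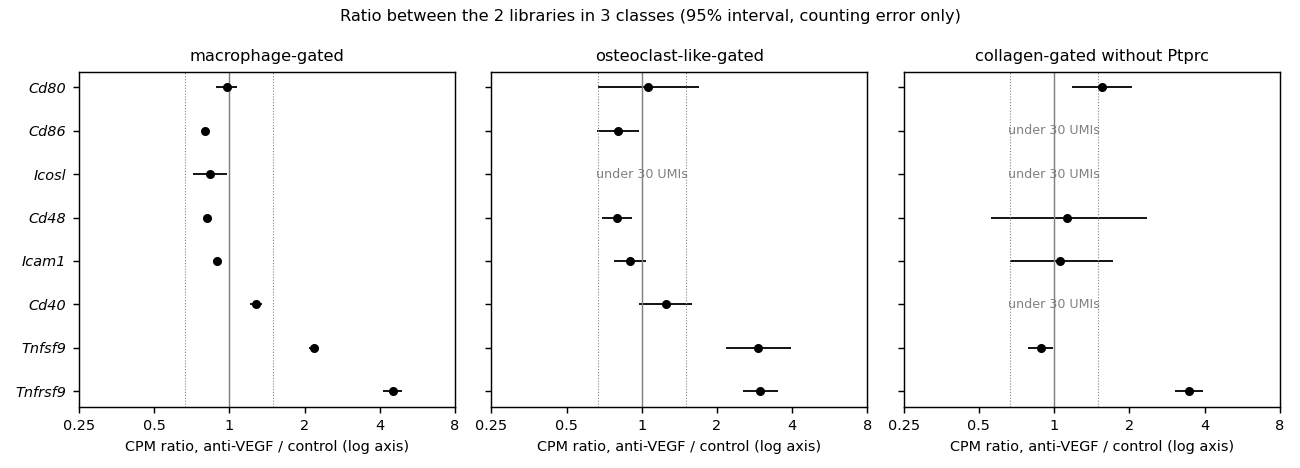
Ratio of the CPM in the anti-VEGF library to that in the control library (log axis) for the 8 genes in 3 classes, with exact conditional binomial 95% intervals. Dotted lines mark 1.5-fold, and genes under 30 UMIs have no ratio. Tnfrsf9 lies to the right in every panel (4.50, 2.98 and 3.46), Tnfsf9 in the first and second only.

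Collagen-gated cells carried both genes of the 4-1BB pair with little of most ligands. Those without Ptprc (391 control and 563 anti-VEGF cells, macrophage markers 198.1 and 148.3 CPM) held Tnfrsf9 at 16.4 CPM (14.5 to 18.5) in control and 56.9 CPM (54.0 to 59.9) in anti-VEGF, a ratio of 3.46 (3.04 to 3.96). A UMI was found in 30.4% and 55.1% of them, and in 4.47% and 9.73% after thinning, beside 2.94% and 1.40% of neutrophils. Their Tnfsf9 was 32.8 CPM (30.1 to 35.8) in control and 29.0 CPM (26.9 to 31.2) in anti-VEGF, a ratio of 0.883 (0.789 to 0.989). The ratio of Tnfsf9 was thus below 1 in these cells and 2.19 in macrophages, while that of Tnfrsf9 was above 3 in both.

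Cd80 in the collagen-gated cells without Ptprc was 4.78 CPM (3.78 to 5.97) from 78 UMIs in control and 7.41 CPM (6.38 to 8.56) from 184 UMIs in anti-VEGF, a ratio of 1.55 (1.18 to 2.05). Leaving out cells that met the macrophage gate gave 4.57 and 7.07 CPM. The other members were near 0 here, and tumour or mesothelial markers (Msln, Krt8, Krt18, Krt19, Upk3b, Wt1) stood at 211.0 and 211.4 CPM over all collagen-gated cells against 1.44 and 2.06 CPM in macrophages. Icam1 stood at 1.90 and 2.01 CPM, Cd48 at 0.858 and 0.967 CPM, and Cd40 at 0.184 and 0.242 CPM from 3 and 6 UMIs.

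The difference in Tnfrsf9 was larger among the collagen-gated cells that held Car9, a hypoxia-induced carbonic anhydrase. With Car9 detected (110 control and 352 anti-VEGF cells), Tnfrsf9 was 20.3 and 74.9 CPM, a ratio of 3.69. Without it (281 and 211 cells) the levels were 14.5 and 23.2 CPM, a ratio of 1.60. Tnfsf9 with Car9 was 43.6 CPM in control and had a ratio of 0.687, and it was 27.6 and 27.2 CPM without Car9. Its lower anti-VEGF level was thus found in the Car9 cells.

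Collagen-gated cells with Ptprc (90 and 124) had macrophage markers at 5348.7 and 3605.6 CPM, and 75 and 91 of them also met the macrophage gate. They held the leukocyte ligands that were near 0 in the cells without Ptprc, with Cd86 at 19.7 CPM in control and 23.2 CPM in anti-VEGF and Cd48 at 21.5 and 21.1 CPM. Cd86 without the cells of the macrophage gate was at 0 UMIs in control, where 3 would have been 4.97 CPM, and at 5.31 CPM in anti-VEGF. Icam1 was 15.0 and 32.0 CPM, a ratio of 2.14 (1.65 to 2.80), or 1.38 (1.05 to 1.82) where 2 or more Ptprc UMIs were required. Without the cells of the macrophage gate Icam1 was 1.66 and 17.9 CPM, from 1 and 27 UMIs. Cd80 was 4.33 and 6.30 CPM, and 4.97 and 0.664 CPM without those cells, from 3 UMIs and 1 UMI.

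Tnfrsf9 in the collagen-gated cells with Ptprc was 11.4 CPM in control and 48.1 CPM in anti-VEGF, a ratio of 4.21 (3.19 to 5.64), and 24.9 and 67.7 CPM outside the macrophage gate. Tnfsf9 was 16.5 and 23.7 CPM, a ratio of 1.43 (1.1 to 1.88), and 19.9 and 23.2 CPM outside that gate, from 12 and 35 UMIs that counting error does not separate. Icosl (1.58 and 1.48 CPM) and Cd40 (6.11 and 6.55 CPM) were close between the libraries.

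**Figure D4:**
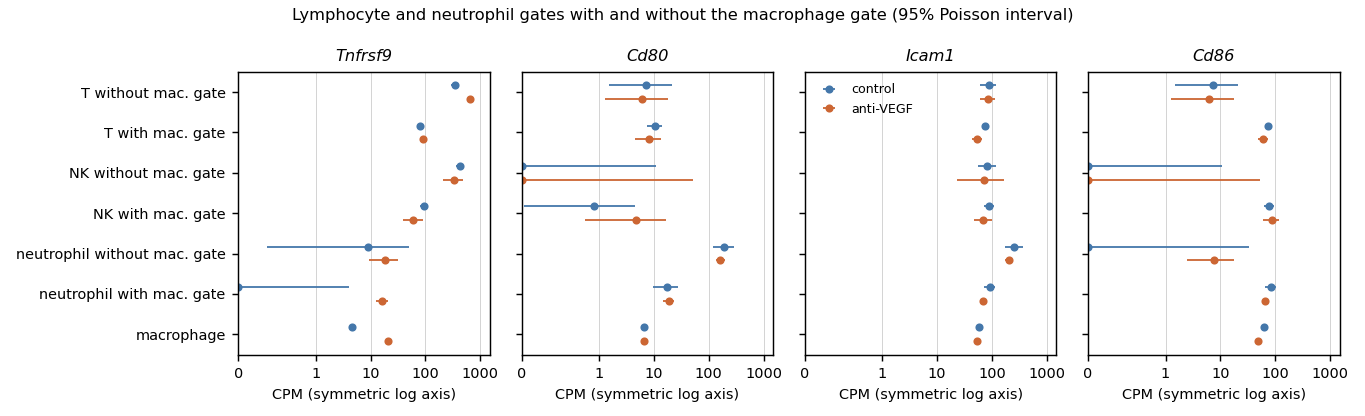
Level (CPM, symmetric log axis) of Tnfrsf9, Cd80, Icam1 and Cd86 in T, NK and neutrophil gates outside and inside the macrophage gate, and in macrophages, for the control (blue) and anti-VEGF (orange) library, with exact 95% Poisson intervals. Cd86 is at or under 7.65 CPM in every gate outside the macrophage gate and near the macrophage level inside it, whereas Cd80 and Icam1 are higher in neutrophils outside it.

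The genes around the 8 members were read from 3 lists. Of 10 receptors and partners, 9 could be measured in macrophages, 4 with a ratio above 1 and a median log2 ratio of -0.04. Itgb2, the shared chain of LFA-1 and Mac-1, was the only one higher past 1.5-fold, from 112.3 CPM in control to 170.8 CPM in anti-VEGF (ratio 1.52), and Ctla4, at 0.354 and 0.0666 CPM, the only one lower. In T cells outside the macrophage gate Ctla4 was 221.0 and 407.0 CPM, Icos 201.8 and 331.7 CPM, Cd28 242.6 and 252.3 CPM, and Cd40lg 45.6 and 24.4 CPM from 19 and 12 UMIs. T cells thus held far more Ctla4 than macrophages. Ctla4 (21 control and 26 anti-VEGF cells with a UMI) and Icos (22 and 34 cells) stood higher in anti-VEGF T cells. Cd28 was close and Cd40lg lower there, with intervals that overlapped between the libraries.

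Of 25 other costimulatory genes, 22 could be measured in macrophages, with 9 above 1 and a median of -0.08. Past 1.5-fold, 3 were higher and 5 lower, beside 5.99% and 6.99% of all genes. The 3 higher were Timd4, from 1.14 to 2.85 CPM, and both PD-1 ligands, Pdcd1lg2 from 2.62 to 5.31 CPM and Cd274 from 26.9 to 46.2 CPM. Of the 5 lower, Tnfrsf4 went from 0.530 CPM in control to 0.150 CPM in anti-VEGF, and Tnfrsf18 from 0.424 to 0.167 CPM. These levels rest on 75 and 18 UMIs for Tnfrsf4 and on 60 and 20 UMIs for Tnfrsf18. T cells outside the macrophage gate held far more of both, in the other direction. Their levels were 216.2 and 459.9 CPM for Tnfrsf4 and 293.1 and 382.6 CPM for Tnfrsf18. The part of T-cell RNA in the macrophage values was not tested. The other lower genes in macrophages were Slamf1 (11.7 to 5.55 CPM), Tnfsf18 (0.389 to 0.192 CPM) and Icam2 (2.42 to 1.52 CPM). In osteoclast-like cells 13 were measured, 3 of them higher, among which Tnfsf8, the CD30 ligand, went from 22.5 to 40.7 CPM, and 2 lower, beside 3.25% and 3.43% of all genes. In collagen-gated cells without Ptprc 8 were measured, with 0 higher and 2 lower (4.33% and 5.29% of all genes), Slamf1 and the B-cell factor Tnfsf13b (5.09 to 3.18 CPM).

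The 21 genes of CD40 and 4-1BB signalling and NF-kappaB feedback were all measured in macrophages, and 0 passed 1.5-fold in either direction, with 9 above 1 and a median of -0.03. The largest ratio was that of Tnf, 53.4 CPM in control and 76.7 CPM in anti-VEGF (1.44). In osteoclast-like cells Tnf passed, from 7.62 to 13.6 CPM (1.79), as the only one of 21. In collagen-gated cells without Ptprc 4 of 21 were above 1, with a median of -0.15 beside -0.09 over all genes, and Traf1, an adaptor bound by 4-1BB, was 37.7 CPM in control and 27.2 CPM in anti-VEGF (0.722).

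Both genes of the 4-1BB pair were seldom read in the same macrophage. With cells thinned to 10000 UMIs, 19 of 4785 control (0.397%) and 93 of 4177 anti-VEGF macrophages (2.23%) held both. Tnfrsf9 was found in 3.12% of control macrophages with Tnfsf9 and 2.44% of those without, and in 11% and 8.22% in anti-VEGF. In collagen-gated cells without Ptprc 14 of 335 (4.18%) and 42 of 540 (7.78%) held both. The CD28 ligands went together more closely, with Cd86 in 63.7% of control macrophages with Cd80 and 36.3% of those without, and 46.9% and 31.5% in anti-VEGF.

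Over 18 points (9 classes in each of 2 libraries), Pearson correlations of log2(CPM + 1) described which genes followed each member. These points share libraries, depth and free RNA. The T, NK, neutrophil and dendritic points took the whole gates, with the cells that also met the macrophage gate. In those whole gates Cd86 was 60.2 CPM in control NK cells and 74.7 CPM in control neutrophils, while outside the macrophage gate neither had a UMI. The correlations therefore do not describe the levels given above for cells outside that gate. Cd86 ran with Cd48 (0.95), Icam1 (0.95), Cd40 (0.94) and Icosl (0.93), whereas Tnfsf9 with Tnfrsf9 gave 0.35 and Cd86 with Tnfrsf9 0.07. Outside the set the nearest genes were Bcl2a1d, Ctsh and Cd83 for Cd86, Gcnt2, Ift172 and Il13ra1 for Cd80, Cytip, Nr4a3 and Dgkh for Icosl, and Runx3, Cd52 and Coro1a for Cd48. They were Pde4b, Il10ra and Necap2 for Icam1, Arl5c, Bcl2a1a and Rassf2 for Cd40, Tspo, Gypc and Gm11110 for Tnfsf9, and AC163032.1, Leng8 and Tcf7 for Tnfrsf9. The highest correlations were 0.99 for Cd86 and 0.85 for Tnfrsf9. Gm11110 is the gene that overlaps Tnfsf9 on the opposite strand.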

How the data were processed

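UMI counts were used as the authors deposited them: gene-by-barcode matrices made with Cell Ranger (3.0.2 against mm10, per the submitters' processing notes, 3.1.0 per the file headers). Barcodes with at least 300 genes, 500 UMIs and at most 10% mitochondrial UMIs were kept. A cell that met 1 lineage gate took its class, cells that met more (94 control and 77 anti-VEGF) were set apart, and the remainder were macrophages with at least 5 of 9 markers or met no gate. Counts were summed per class and library into CPM. Interval code was tested on simulated counts of 13810 genes in macrophage-gated cells. Sets of 50 genes were given a 1.25-, 1.5-, 2- or 4-fold change, and between 92.0% and 96.0% of a set's intervals held the true value. The counts were Poisson draws, which the intervals assume, so clustering of UMIs in few cells was not tested. The members, marker lists, gates, score cuts and gene lists were chosen with earlier results of these data known; hypoxia bins, co-detection at 10000 UMIs and the removal of cells with collagen or T-cell marker UMIs were chosen after seeing the data. Named were the 8 members, the 3 genes most like each member, and genes from each list. The list genes were taken from those that differed between the libraries and were not always those with the largest or smallest ratio. Partner genes in T cells, Traf1 and the T-cell subsets were singled out after their values were seen. Scrublet (scanpy 1.11.5) called 1 and 0 cells and so did not work, and removing its highest scores (1010 and 576 cells) was an alternative. Other alternatives were TMM factors (edgeR 4.0.16), equal weight per cell, thinning, other filters and stricter gates. Precision is limited by 1 library per antibody.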

Additional observations from a re-analysis of the deposited data

Results flagged for a closer look

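Cells that met no gate (2495 control and 1579 anti-VEGF cells, median 1424 and 2835 UMIs) enter no comparison above, yet both genes of the 4-1BB pair were higher there in the anti-VEGF library. Tnfrsf9 was 6.88 CPM from 108 UMIs in the control library and 57.5 CPM from 919 UMIs in the anti-VEGF library, a ratio of 8.36 (6.84 to 10.3). Tnfsf9 was 3.76 CPM from 59 UMIs and 20.5 CPM from 328 UMIs, a ratio of 5.46 (4.13 to 7.34). In the same cells macrophage markers stood at 1605.7 CPM in control and 850.9 CPM in anti-VEGF, collagen markers at 83.5 and 101.6 CPM, and tumour or mesothelial markers at 37.1 and 58.7 CPM. Their part in the 2 ratios was not tested. Cells that met more than 1 lineage gate (94 and 77) were also set apart. In them Tnfrsf9 was 73.2 CPM in control and 51.4 CPM in anti-VEGF, a ratio of 0.702 (0.587 to 0.838), and Tnfsf9 was 23.4 and 29.4 CPM, a ratio of 1.26 (0.956 to 1.66).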

How the results depend on the processing

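Over the alternatives run in macrophages, the log2 ratio ranged from 1.83 (cells weighted equally) to 2.42 for Tnfrsf9, from 0.95 (thinned) to 1.23 for Tnfsf9, from 0.30 to 0.45 for Cd40, from -0.39 to -0.16 for Cd86, from -0.45 to -0.20 for Cd48 and from -0.22 to -0.06 for Icam1. Under each of them 2 members were higher past 1.5-fold and 0 lower. With cells thinned to 2000 UMIs the median over the members was 0.17 against -0.10, the number with a ratio above 1 was 5 against 3, and Icosl stood at 0.08 against -0.26; the cause was not tested. TMM factors placed the median of all genes at -0.01 against -0.11 and the members' median at 0.00. Among the 3 most like genes, Spearman kept at least 2 only for Tnfsf9. Levels are given for each library throughout, so each library alone has no separate value. No paired analysis was possible because each antibody had 1 library. Depth limits the neutrophil, NK and dendritic classes and all shares of cells with a UMI, and cells of 1 library are not replicates, so no interval covers variation between mice or sorts.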
